A study of Mus musculus with 6 samples.

Results

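Gene expression was compared between KAP1-deleted, non-tumour liver and control liver of mice on a high-fat diet. The comparison rests on 4 of the 6 RNA sequencing libraries of the study, 2 from control livers and 2 from KAP1-deleted livers, chosen by their labels. Control livers came from mice with the transgene TgAlbCre alone, in which the albumin promoter drives Cre recombinase in hepatocytes. KAP1-deleted livers came from TgAlbCreKap1lox mice, which carry the same transgene and a Kap1 allele that Cre can inactivate. By this design cells without Cre would keep KAP1, which was not measured by cell type. All mice had 27 weeks of high-fat diet and were 35 weeks old when killed, and the 4 livers came from 4 mice. The other 2 libraries were tumours taken from the livers of the KAP1-deleted mice. They entered the statistical fit to share its estimate of spread, and their values are printed beside some results without a test. The labels give neither sex nor housing, and p-values measure the spread between these libraries. Y-linked genes were expressed in all 6 libraries, with a lowest value of 26.3 CPM (Kdm5d), and Xist reached at most 1.41 CPM. In bulk tissue, fewer cells of a type and less RNA per cell cannot be told apart.

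KAP1, the product of Trim28, is a co-repressor of the TIF1 family. It is brought to its target sites by zinc finger proteins with a KRAB domain, a large and fast-evolving family of transcription factors. At those sites it recruits the histone methyltransferase SETDB1, HP1 proteins and the NuRD complex, which set up silent chromatin marked by H3K9me3. It is best known for keeping transposable elements silent and for holding the germline-specific methylation of imprinted regions, and the genes of the zinc finger clusters are themselves among its targets.

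Gene counts totalled 39723997 and 62178752 in control replicates 1 and 2, and 50977644 and 53744834 in KAP1-deleted replicates 1 and 2. Levels below are in CPM, a gene's counts per 1000000 counts of its library after TMM scaling, without correction for gene length. For Trim28 (ENSMUSG00000005566) the control livers gave 32.5 and 35.9 CPM and the KAP1-deleted livers 5.06 and 6.01 CPM, which is 6.18-fold lower (log2 fold change -2.63 ± 0.19 (SE), edgeR adjusted p = 0.00393). Trim28 thus separated the groups as labelled. The part of the gene that Cre removes is not given, so counts over the whole gene may hold reads from exons that remain. The summed level of hepatocyte markers was 119822 and 126308 CPM in controls and 119623 and 124038 CPM in KAP1-deleted livers. Over the 10 marker lists of liver and other cell types, edgeR called 0 of 107 tested genes, of which 2 had an unadjusted p under 0.05, and DESeq2 and limma-voom called 0 and 0. Some libraries stood apart in RNA of other cells. KAP1-deleted replicate 2 had 61.9 CPM of lymphocyte markers against 9.13 to 10.8 in the other 3 livers, and 43.6 CPM of exocrine pancreas markers against 5.47 to 8.71. Adipocyte markers summed to 368 and 2575 CPM in control replicates 1 and 2 and to 910 and 2368 CPM in KAP1-deleted replicates 1 and 2. The part of these cells in the results below was not tested. Control replicates differed from each other by more than 2-fold at 526 tested genes and KAP1-deleted replicates at 154.

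Few genes passed the test. Of 17558 genes tested with edgeR's quasi-likelihood test, 42 (0.239%) were higher and 17 (0.0968%) were lower in KAP1-deleted liver at a Benjamini-Hochberg adjusted p under 0.05, 0.336% in all. At an unadjusted p under 0.05 there were 956 genes (5.44%). The median log2 fold change of all tested genes was 0.00. In 25 of the 42 raised genes the control mean was below 1 CPM, in 3 it was at least 10 CPM, and in 0 above 100 CPM. By control level, 0.612% of the 3269 tested genes below 0.5 CPM rose, as did 0.347% of the 1440 at 0.5 to 1 CPM, 0.237% of the 5906 at 1 to 10 CPM and 0.0519% of the 5783 at 10 to 100 CPM. Of the 17 lowered genes, 15 had a control mean of at least 10 CPM. A gene near silence in control liver enters the test only through its higher libraries and cannot be called lower, so these shares are a description. The raised genes moved by a log2 fold change of 1.58 or more, and all 59 called genes had libraries that did not overlap between the groups, which held for 16.7% (higher) and 14.6% (lower) of all tested genes. Asking also for a 2-fold difference, 2.56% of tested genes were separate and higher and 1.93% separate and lower. Among the raised genes 29 were protein-coding, 6 were pseudogenes, 4 were other RNAs and 3 had identifiers without an entry in the reference annotation. Among the lowered genes 15 were protein-coding and 2 were other RNAs.

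**Figure D1:**
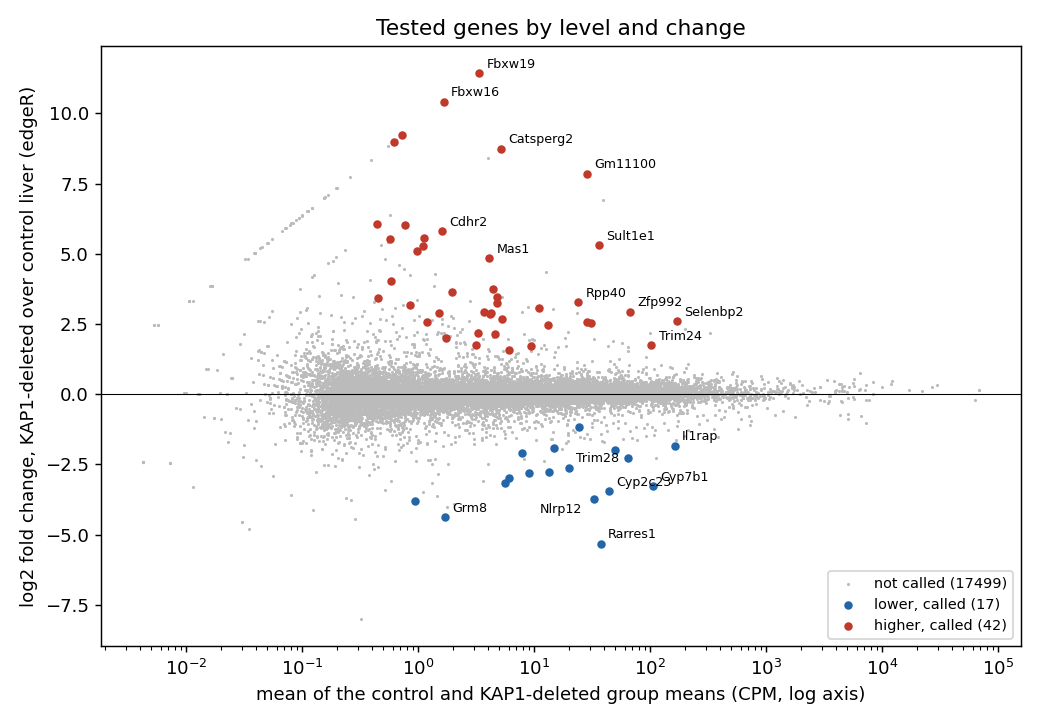
Each point is a tested gene, with the mean of the control and KAP1-deleted group means in CPM on the x axis (log axis) and the edgeR log2 fold change, KAP1-deleted over control liver, on the y axis. The 42 genes called higher (red) reach far above the 17 called lower (blue) in fold change and sit further left, at lower levels, and the other tested genes (grey) were not called.

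The number of calls depended on which libraries entered the fit. EdgeR called 20 genes higher and 14 lower when control replicate 1 was dropped, and 26 and 20 when control replicate 2 was dropped. Dropping KAP1-deleted replicate 1 or 2 gave 64 and 11, or 52 and 13. Dropping tumour replicate 1 or 2 gave 22 and 8, or 23 and 8. Called both here and with only the 4 liver libraries in the fit were 12 higher genes, namely Catsperg2, Gm11100, Rpp40, Cdhr2, Sult1e1, 2410018L13Rik, Zfp981, Zfp987, Zfp992, Zfp993, Gm13169 and Gm13233, and 7 lower genes, namely Trim28, Ifi27, Rarres1, Slc17a8, Fam47e, Gm10032 and Gm20319. The rest were not called in that smaller fit. Calls of 13 genes survived the loss of any single library. These were Fbxw16, Catsperg2, Gm11100, 2410018L13Rik, Mas1, Rpp40, Zfp987, Zfp993, Gm13169 and Gm13233 among the raised and Trim28, Ifi27 and Gm20319 among the lowered. Other settings ended calls too. Upper-quartile scaling did not call Il1rap, Trim24, Catsperg1, Fam47e, Gm10032, 5730507C01Rik, Zfp808, Gm13245 and Vmn2r52 (edgeR adjusted p of 0.0541 to 0.0795). Limma-voom did not call 21 of the 59 (adjusted p of 0.0531 to 0.178), among them Hspb1, Grm8, Aatk, Npr2, Gadd45a, Catsperg1, Cox6b2, 2410018L13Rik, Vmn2r52, Zfp345, Zfp808 and Zfp934. A filter at a mean of 1 CPM left out or ended 25, among them Slc17a8, Cyp2c23, Zap70, Il1rap, Trim24, Ism1 and Zfp984 (edgeR adjusted p up to 0.0979). For the other genes described the libraries that end the call are named below.

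The largest group of raised genes lay together in a stretch of chromosome 4. Fbxw16 and Fbxw19 lay side by side on chromosome 9, and Zfp808 and Zfp934 on either side of Zfp935 on chromosome 13. The paralogs Catsperg1 and Catsperg2 both lay on chromosome 7. Distances between raised genes were not measured. Chromosome 4 held 16 of the 42, 1.38% of its 1157 tested genes, where 0.239% of all tested genes rose. Chromosome 7 held 5 (0.423% of its tested genes), chromosome 13 held 4 (0.633%), chromosome 9 held 3 (0.346%) and chromosome 2 held 3 (0.211%). On chromosome 4, 15 of the 16 lay in a stretch from Gm13244 to Zfp984 in the gene order of GRCm38, a place known from earlier results of these data. Of 44 tested genes there, 15 rose, 0 fell, 43 had a log2 fold change above 0, and the median was 2.07 against 0.00 over all tested genes. Both ends of the stretch are raised genes of this comparison, so these numbers describe it and are no test. Fits that dropped control replicate 1 or 2 kept 4 or 6 of these 15 calls, those that dropped KAP1-deleted replicate 1 or 2 kept 12 or 15, those that dropped tumour replicate 1 or 2 kept 7 each, and the fit of the 4 livers kept 6. The remaining 24 raised genes on the chromosomes had 48 nearest tested neighbours, of which 2 were called, both in the pair Fbxw16 and Fbxw19, which lie side by side on chromosome 9. Of these 48, 13 differed by 2-fold or more, Fbxw16 and Fbxw19 among them, and the median log2 fold change of the 48 was 0.28. The 13 also include genes near silence, such as Gm14127 at 0 and 0 CPM in control and 0.114 and 0.0424 CPM in KAP1-deleted livers. The share with a 2-fold difference was not computed over all tested genes, so this number is a description. The lowered genes had 34 such neighbours, of which 2 were called, both in the overlapping pair Il1rap and Gm20319. Of the 34, 4 differed by 2-fold or more, and the median of the 34 was -0.13.

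**Figure D2:**
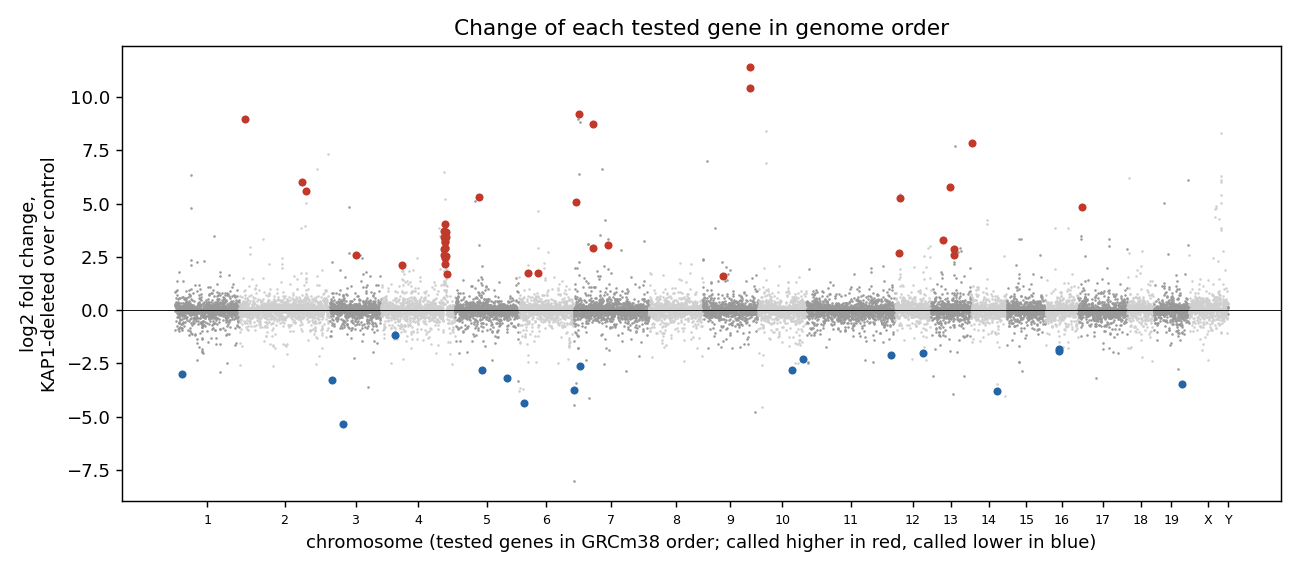
Each point is a tested gene in GRCm38 order along the chromosomes (x axis), with its edgeR log2 fold change, KAP1-deleted over control liver, on the y axis. The column of red points near the end of chromosome 4 is the stretch with 15 raised genes, and the 17 lowered genes (blue) lie scattered.

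The stretch on chromosome 4 is a cluster of zinc finger genes and their pseudogenes, most of which encode or once encoded KRAB zinc finger proteins, the class that brings KAP1 to DNA. The raised members with a protein name were Zfp987, Zfp988, Zfp534, Zfp989, Zfp992, Zfp981, Zfp991, Zfp993 and Zfp984. Zfp992 stood at 16.1 and 14.9 CPM in control replicates 1 and 2, against 145 and 90.9 CPM in KAP1-deleted replicates 1 and 2, a 7.63-fold rise (log2 fold change 2.93 ± 0.29, edgeR adjusted p = 0.0105). In this gene and in every other raised one of the stretch both KAP1-deleted libraries lay above both controls, and replicate 1 lay above replicate 2. Zfp991 was at 10.3 and 7.93 CPM in control and 65.4 and 39.1 CPM in KAP1-deleted livers. Its neighbour in kind, the pseudogene Znf41-ps, went from 9.41 and 6.86 to 60.7 and 36.8 CPM. Zfp993 went from 3.64 and 4.50 to 25.8 and 18.7 CPM. Control liver already held several CPM of each of these, and of Zfp984, the last gene of the stretch, at 4.67 and 4.11 against 16.0 and 12.7 CPM, which had the smallest fold change of the 15 (log2 fold change 1.71 ± 0.22, edgeR adjusted p = 0.0280). Others were close to silence in control liver. Zfp987 stood at 0.750 and 0.509 CPM there and at 10.2 and 6.23 CPM after deletion (log2 fold change 3.74 ± 0.34, edgeR adjusted p = 0.00987). Zfp988 went from 0.375 and 0.221 to 4.45 and 2.80 CPM, and Zfp534 from 0.0577 and 0.0849 to 0.999 and 0.657 CPM. The pseudogene Gm13245 had the largest fold change of the 15 raised genes, from 0.0866 and 0.0509 to 1.38 and 0.805 CPM (log2 fold change 4.02 ± 0.60, edgeR adjusted p = 0.0487). Zfp600 and Zfp980 lay just outside the threshold, both with non-overlapping libraries, at 1.18 and 0.950 against 4.38 and 3.30 CPM and 1.04 and 0.815 against 3.72 and 2.94 CPM (edgeR adjusted p = 0.0519 and 0.0516). The other raised genes of the stretch were Zfp981 at 0.808 and 0.916 against 7.88 and 5.21 CPM, Zfp989 at 0.202 and 0.136 against 1.77 and 1.25 CPM, the pseudogenes Gm13244 at 1.21 and 0.849 against 9.58 and 5.44 CPM, Gm13169 at 0.606 and 0.967 against 10.4 and 7.22 CPM and Gm13233 at 0.866 and 0.916 against 10.2 and 6.90 CPM, and the noncoding RNA Gm13166 at 0.837 and 1.51 against 5.63 and 5.17 CPM. The genes of the stretch are close copies. Of the 31-base words in the transcripts of Zfp987, Zfp993 and Zfp992, 6.85%, 8.10% and 50.1% occur in no other gene of the reference, so reads of relatives may be mixed and single values are uncertain. Except for Zfp987, Zfp993, Gm13169 and Gm13233, calls in the stretch did not survive every loss of 1 library. By adjusted p, they were lost for Zfp992 without control replicates 1 and 2 (0.0615 and 0.0659), Zfp991 without control replicates 1 and 2 (0.0695 and 0.0819) and tumour replicates 1 and 2 (0.0605 and 0.0587), Znf41-ps without control replicates 1 and 2 (0.0703 and 0.0819) and tumour replicates 1 and 2 (0.0605 and 0.0582), Zfp984 without control replicates 1 and 2 (0.0615 and 0.0799), KAP1-deleted replicate 1 (0.0673) and tumour replicates 1 and 2 (0.0610 and 0.0598) and Zfp988 without control replicates 1 and 2 (0.130 and 0.176). They were also lost for Zfp534 without control replicates 1 and 2 (0.114 and 0.0819), KAP1-deleted replicate 1 (0.0648) and tumour replicates 1 and 2 (0.0848 and 0.0833), Gm13245 without control replicates 1 and 2 (0.130 and 0.181) and tumour replicates 1 and 2 (0.0703 and 0.0633), Zfp981 without control replicate 1 (0.0564), Zfp989 without control replicates 1 and 2 (0.0513 and 0.0811) and tumour replicates 1 and 2 (0.0616 and 0.0612), Gm13244 without control replicates 1 and 2 (0.0678 and 0.0819) and tumour replicates 1 and 2 (0.0610 and 0.0598) and Gm13166 without control replicate 1 (0.0631), KAP1-deleted replicate 1 (0.0546) and tumour replicates 1 and 2 (0.0848 and 0.0823). The adjusted p over all alternatives ranged from 9.7e-27 to 0.0659 for Zfp992, 6.1e-22 to 0.0819 for Zfp991, 4.9e-23 to 0.0819 for Znf41-ps, 4.7e-09 to 0.0799 for Zfp984, 9.3e-21 to 0.176 for Zfp988, 7.9e-08 to 0.114 for Zfp534, 7.8e-12 to 0.181 for Gm13245, 1.4e-18 to 0.0564 for Zfp981, 3.4e-10 to 0.0811 for Zfp989, 4.1e-19 to 0.0819 for Gm13244 and 5.1e-10 to 0.0958 for Gm13166.

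Zinc finger genes also rose outside that stretch. Of 351 tested genes named Zfp and a number in the whole genome, 12 rose and 0 fell, where 0.239% of all tested genes rose. The stretch itself held 9 of these 12. An unadjusted p under 0.05 was seen for 44 of the 351, against 5.44% of all tested genes, and the median log2 fold change of the 351 was 0.14. Numbers over the 351, here and below, include the stretch and were not computed without it. The 3 raised members elsewhere were Zfp345 on chromosome 2 and Zfp808 and Zfp934 on chromosome 13. Zfp808 and Zfp934 lie on either side of the tested gene Zfp935, which was not called. Zfp935 stood at 5.63 and 3.22 CPM in control and 9.01 and 5.27 CPM in KAP1-deleted livers. Zfp345 stood at 0.0866 and 0.0170 CPM in control and 2.97 and 1.44 CPM in KAP1-deleted livers (log2 fold change 5.58 ± 0.66, edgeR adjusted p = 0.0217). Zfp808 stood at 1.44 and 0.628 against 9.15 and 5.42 CPM (edgeR adjusted p = 0.0477), and Zfp934 at 0.404 and 0.288 against 2.27 and 1.82 CPM (edgeR adjusted p = 0.0260). Groups were apart in all 3 raised members, with KAP1-deleted replicate 1 above replicate 2. Words found in no other gene made up 48.7% of Zfp345, 56.8% of Zfp808 and 55% of Zfp934, so reads of relatives may be mixed in. DESeq2 called 22 of the 351 higher and limma-voom 6, against 152 and 26 of all 17558 tested genes. Single libraries ended these calls, with the adjusted p given for each. They were lost for Zfp345 without control replicates 1 and 2 (0.0621 and 0.0970) and tumour replicates 1 and 2 (0.0610 and 0.0598), for Zfp808 without control replicate 2 (0.0760), KAP1-deleted replicate 1 (0.0536) and tumour replicates 1 and 2 (0.109 and 0.104), and for Zfp934 without control replicates 1 and 2 (0.0564 and 0.0819), KAP1-deleted replicate 1 (0.0548) and tumour replicates 1 and 2 (0.0652 and 0.0622). Over all alternatives it ranged from 1.2e-26 to 0.0970 for Zfp345, from 8.5e-17 to 0.140 for Zfp808 and from 1.8e-08 to 0.0819 for Zfp934. The partners of KAP1 in silencing, among them SETDB1, the HP1 proteins, the NuRD subunits and the DNA methyltransferases, gave no call by edgeR in 31 tested genes (2 with an unadjusted p under 0.05, 0 by DESeq2 and 0 by limma-voom). Their median log2 fold change was -0.09. The lowest p belonged to Chd3, a NuRD helicase, at 56.6 and 81.7 CPM in control and 40.7 and 30.5 CPM in KAP1-deleted livers (edgeR adjusted p = 0.546).

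Of the raised genes, 4 had 0 counts in both controls and 4 others had 1 to 3 counts in all. Fbxw19 and Fbxw16 belong to a family of F-box proteins with WD repeats that is expressed in oocytes, where F-box proteins choose the substrates of ubiquitin ligases. Fbxw19 had 0 counts in both control libraries and 409 and 194 counts in KAP1-deleted replicates 1 and 2, which is 9.28 and 4.11 CPM and at least 206-fold higher (edgeR adjusted p = 0.0105). Fbxw16 also had 0 counts in both controls and rose to 186 and 112 counts, or 4.22 and 2.37 CPM, a rise of at least 102-fold (edgeR adjusted p = 0.00987). These bounds take 3 counts over the control group as the floor. The other 2 tested members of the family did not pass the test, with Fbxw15 at 0.0577 and 0.0509 CPM in control and 0.0454 and 0.0847 CPM in KAP1-deleted livers and Fbxw17 at 1.62 and 1.60 against 1.45 and 1.31 CPM (edgeR adjusted p = 1 and 1). Catsperg2, an auxiliary subunit of the sperm cation channel CatSper, went from 2 and 0 counts to 511 and 430 counts, or 11.6 and 9.11 CPM, a ratio of 482 with a 95% interval of 133 to 3989 (edgeR adjusted p = 0.00393). Its paralog Catsperg1 stood at 0.491 and 0.238 against 2.95 and 2.31 CPM (log2 fold change 2.90 ± 0.41, edgeR adjusted p = 0.0419), and a channel subunit of another gene, Catsper2, at 3.41 and 3.24 against 4.61 and 3.01 CPM (edgeR adjusted p = 1). Words found in no other gene made up 59.3% of Fbxw16, 84.4% of Fbxw19, 43.7% of Catsperg2 and 44.6% of Catsperg1, so the counts of each pair may be mixed.

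Vmn2r52, a pheromone receptor of the vomeronasal organ, had 0 counts in both controls and 88 and 42 counts after deletion, at least 44.4-fold higher (edgeR adjusted p = 0.0400). On its sides lie Vmn2r51, with 0 and 0 counts in control and 75 and 33 in KAP1-deleted livers, and Gm20679, with 1 and 0 against 73 and 27 counts. Neither passed the test (edgeR adjusted p = 0.118 and 0.0710). Cox6b2, a testis form of a cytochrome c oxidase subunit, rose from 0.0289 and 0.0679 to 2.41 and 1.36 CPM (log2 fold change 5.10 ± 0.59, edgeR adjusted p = 0.0217). Ism1, which encodes the secreted protein isthmin, had 2 control counts in all and 64 and 74 counts after deletion, a ratio of 70.7 with a 95% interval of 19.2 to 590.0 (edgeR adjusted p = 0.0244). Counting intervals and bounds cover counting error alone. Among 4 tested genes of a list of 32 germline genes that silent chromatin holds down in other cells, edgeR called 0 (1 with an unadjusted p under 0.05, 0 by DESeq2 and 0 by limma-voom). Calls were lost, at the adjusted p given, for Fbxw19 without control replicates 1 and 2 (0.0703 and 0.0799), Vmn2r52 without control replicates 1 and 2 (0.0970 and 0.0993) and tumour replicates 1 and 2 (0.0848 and 0.0811), Catsperg1 without control replicate 2 (0.0819), KAP1-deleted replicate 1 (0.0648) and tumour replicates 1 and 2 (0.0848 and 0.0821), Cox6b2 without control replicates 1 and 2 (0.0581 and 0.0514), and Ism1 without control replicate 1 (0.0567). Over all alternatives it ranged from 7.6e-65 to 0.0799 for Fbxw19, 2.4e-21 to 0.104 for Vmn2r52, 4.8e-10 to 0.0958 for Catsperg1, 3.6e-18 to 0.0619 for Cox6b2 and 1.2e-15 to 0.0567 for Ism1.

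**Figure D3:**
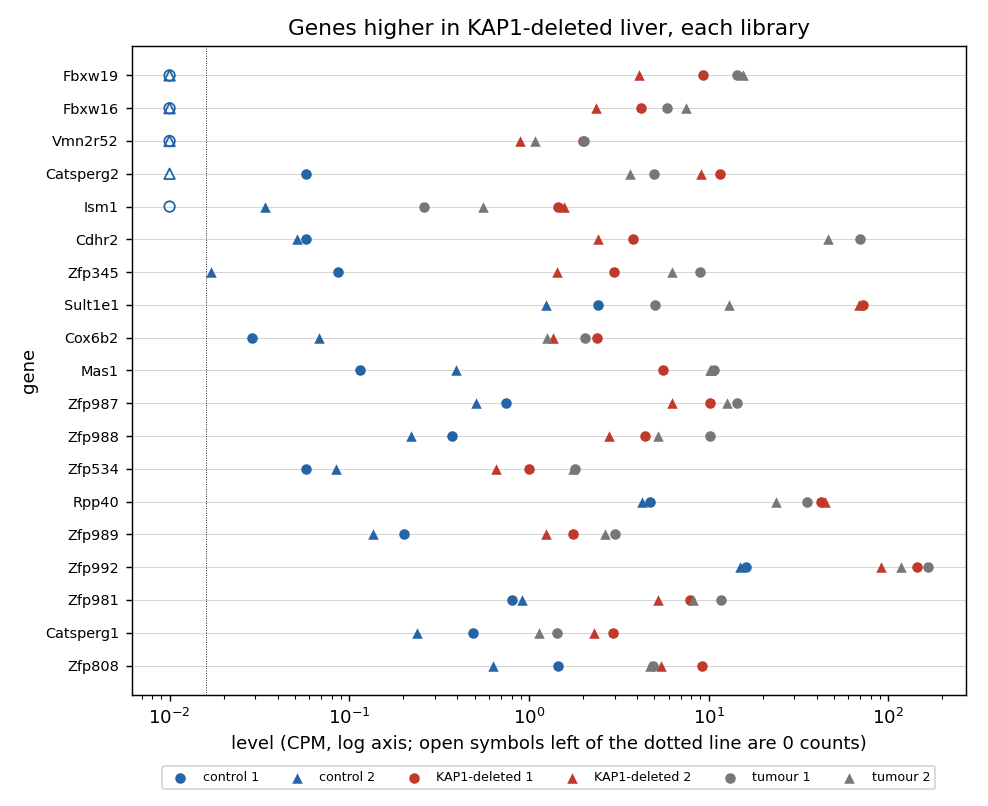
Levels in CPM (x axis, log axis) of 19 genes called higher in KAP1-deleted liver, 1 gene per line, with controls in blue, KAP1-deleted livers in red and tumours in grey, circles for replicate 1 and triangles for replicate 2. Open symbols mark 0 counts, as in both controls of Fbxw19, Fbxw16 and Vmn2r52, and every red symbol lies to the right of both blue ones.

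The stretches just upstream of raised genes were examined because zinc finger proteins guide KAP1 by DNA sequence and because KAP1 is known to hold DNA methylation, which lies on CG. RefSeq promoter windows of build GRCm38.p6, cut to the 250 bases before the transcription start, were on hand for 25 of the 42 raised, 13 of the 17 lowered and 11364 of all tested genes. RefSeq places 2 of these, Zfp981 and Zfp993, elsewhere in their cluster than the annotation used for gene order. Windows of raised genes held a median of 3 CG dinucleotides and those of lowered genes 12, against 15 over all tested genes. At most 5 CG were found in 17 of the 25 (68%) raised and 5 of the 13 (38.5%) lowered genes, against 20.5% of all. The motif CCAAT, searched on both strands, was present in 18 of the 25 (72%) raised and 4 of the 13 (30.8%) lowered genes, against 36.5% of all windows. The motif TATAAA on both strands was present in 2 of the 25 (8%) raised genes, 0 lowered genes and 7.22% of all. Zinc finger genes of the chromosome 4 stretch and the Fbxw pair are relatives, so their windows are not independent, and a match is a description and not a binding site. The groups also differed in level, with a control mean below 1 CPM in 25 of the 42 raised genes and of at least 10 CPM in 15 of the 17 lowered. Windows were not compared at like levels, so the part of level in these shares was not tested. The windows of Fbxw16 and Fbxw19 were identical at 72.6% of aligned positions and those of Zfp987 and Zfp984 at 72.9%, while Fbxw16 and Zfp987 reached 47.6%. Pairs of windows from the chromosome 4 cluster ranged from 38.8% (Zfp984 and Zfp993) to 88.2% (Zfp988 and Zfp534). Printed below are the windows of Fbxw16, Fbxw19, Zfp987 and Zfp984, as 2 pairs of like windows, and those of Sult1e1 and Rarres1, a raised and a lowered gene on other chromosomes. They run 5′ to 3′ on the strand of the gene and end just before its start, with CG in capitals. Their places in GRCm38.p6 are chr9:109449141-109449390 (minus strand) for Fbxw16, chr9:109495855-109496104 (minus strand) for Fbxw19, chr4:146097062-146097311 (plus strand) for Zfp987, chr4:147809789-147810038 (minus strand) for Zfp984, chr5:87591612-87591861 (minus strand) for Sult1e1 and chr3:67515524-67515773 (minus strand) for Rarres1.
Fbxw16: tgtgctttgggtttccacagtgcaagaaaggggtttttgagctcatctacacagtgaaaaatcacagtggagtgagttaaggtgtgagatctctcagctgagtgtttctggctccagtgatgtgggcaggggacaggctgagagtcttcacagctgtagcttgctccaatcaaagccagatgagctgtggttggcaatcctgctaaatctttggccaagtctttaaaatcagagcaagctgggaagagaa
Fbxw19: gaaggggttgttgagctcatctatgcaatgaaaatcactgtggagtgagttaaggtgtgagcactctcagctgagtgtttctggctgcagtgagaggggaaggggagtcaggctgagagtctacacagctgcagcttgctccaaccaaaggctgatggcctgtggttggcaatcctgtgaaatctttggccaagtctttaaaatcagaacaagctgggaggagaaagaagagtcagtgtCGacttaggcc
Zfp987: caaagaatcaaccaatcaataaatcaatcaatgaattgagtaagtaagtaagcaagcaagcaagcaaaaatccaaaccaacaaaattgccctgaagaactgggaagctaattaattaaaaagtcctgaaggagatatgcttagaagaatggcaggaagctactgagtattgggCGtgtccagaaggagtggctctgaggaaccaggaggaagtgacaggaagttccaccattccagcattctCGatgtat
Zfp984: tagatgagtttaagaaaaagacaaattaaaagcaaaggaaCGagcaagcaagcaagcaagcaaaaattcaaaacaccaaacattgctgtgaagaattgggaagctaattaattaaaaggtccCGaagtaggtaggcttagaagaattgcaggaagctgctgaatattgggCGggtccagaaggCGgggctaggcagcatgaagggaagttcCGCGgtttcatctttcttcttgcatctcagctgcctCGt
Sult1e1: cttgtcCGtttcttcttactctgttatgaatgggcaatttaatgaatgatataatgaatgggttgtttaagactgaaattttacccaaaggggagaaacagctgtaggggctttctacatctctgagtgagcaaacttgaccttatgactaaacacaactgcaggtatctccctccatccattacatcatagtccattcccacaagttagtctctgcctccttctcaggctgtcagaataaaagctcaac
Rarres1: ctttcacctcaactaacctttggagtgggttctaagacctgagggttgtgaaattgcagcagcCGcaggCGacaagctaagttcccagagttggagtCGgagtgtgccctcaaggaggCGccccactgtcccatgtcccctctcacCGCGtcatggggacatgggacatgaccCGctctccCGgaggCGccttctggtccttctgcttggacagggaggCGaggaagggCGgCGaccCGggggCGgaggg
The Fbxw16 window holds 0 CG and the Fbxw19 and Sult1e1 windows 1 each, Zfp987 holds 2 and Zfp984 7, and the window of Rarres1 holds 14.

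Raised genes with known roles in liver metabolism included a sulfotransferase and a selenium-binding protein. Sult1e1 encodes the sulfotransferase that inactivates estrogens. It stood at 2.42 and 1.24 CPM in control replicates 1 and 2 and at 72.5 and 68.4 CPM in KAP1-deleted replicates 1 and 2, so that the groups lay far apart and the KAP1-deleted livers close together (log2 fold change 5.30 ± 0.57, edgeR adjusted p = 0.0294). The tumours of the same mice held 5.01 and 13.1 CPM. Of 11 tested sulfotransferases it was the 1 that rose, and 5 had an unadjusted p under 0.05, against 0.239% and 5.44% of all tested genes. Sult3a1 and Sult3a2, sulfotransferases that female mouse liver expresses, stood at 0.0577 and 1.07 against 56.1 and 97.6 CPM and at 0 and 0.0339 against 3.45 and 12.6 CPM. Neither passed the test (log2 fold change 6.92 ± 1.64 and 8.41 ± 1.90, edgeR adjusted p = 0.455 and 0.388). DESeq2 called 4 of the 11 higher, and 152 of all 17558 tested genes. Selenbp2, a selenium-binding protein of male mouse liver, rose from 40.5 and 54.8 to 214 and 365 CPM, 6.07-fold (log2 fold change 2.60 ± 0.32, edgeR adjusted p = 0.0244). Both KAP1-deleted livers were also above both tumours, which held 87.5 and 123 CPM. Words found in no other gene made up 40.7% of Selenbp2, so reads of relatives may be mixed in. The pseudogene Mup-ps10 of the major urinary protein cluster went from 1.59 and 1.80 to 9.42 and 5.59 CPM (edgeR adjusted p = 0.0400), with 14.4% of its words in no other gene. Of 17 tested major urinary protein genes edgeR called 0, with 0 at an unadjusted p under 0.05, and DESeq2 and limma-voom called 0 and 0. Dropping 1 library took the adjusted p above 0.05 for Sult1e1 without control replicates 1 and 2 (0.292 and 0.306) and KAP1-deleted replicates 1 and 2 (0.233 and 0.227), Selenbp2 without control replicates 1 and 2 (0.158 and 0.0819) and tumour replicates 1 and 2 (0.0610 and 0.0598) and Mup-ps10 without control replicates 1 and 2 (0.126 and 0.0819), KAP1-deleted replicate 1 (0.117) and tumour replicates 1 and 2 (0.0848 and 0.0833). Over all alternatives the adjusted p ranged from 2.0e-75 to 0.306 for Sult1e1, 1.4e-20 to 0.158 for Selenbp2 and 1.1e-09 to 0.126 for Mup-ps10.

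Among raised genes of signalling and cell structure, Trim24 is a relative of KAP1 in the TIF1 family, a co-regulator of nuclear receptors that restrains liver growth in mice. It stood at 56.2 and 37.5 CPM in control and 170.3 and 145 CPM in KAP1-deleted livers (log2 fold change 1.75 ± 0.26, edgeR adjusted p = 0.0474), while Trim33, another member of the family, stood at 40.7 and 31.5 against 44.1 and 37.8 CPM (edgeR adjusted p = 1). Cdhr2 is a protocadherin that ties the tips of microvilli together in brush borders. It rose from 0.0577 and 0.0509 CPM to 3.79 and 2.44 CPM, 57.3-fold (log2 fold change 5.80 ± 0.48, edgeR adjusted p = 0.00721), and the tumours held 70.0 and 45.9 CPM. Of the other 4 tested genes of that adhesion complex edgeR called 0. Of all 5, Cdhr2 included, DESeq2 called 2 higher and limma-voom 1. Calml4, a calmodulin-like subunit, was at 1.30 and 0.730 against 3.86 and 2.48 CPM (edgeR adjusted p = 0.217), and Cdhr5, the partner cadherin, at 20.6 and 23.4 against 14.2 and 18.4 CPM (edgeR adjusted p = 0.950). Mas1 encodes a receptor for angiotensin fragments and lies in the locus of the imprinted gene Igf2r. It rose from 0.115 and 0.390 to 5.61 and 10.3 CPM (log2 fold change 4.84 ± 0.49, edgeR adjusted p = 0.0117), and it was the 1 gene that rose of 31 tested imprinted genes, of which 0 fell, and of 8 tested genes of its locus. Over all tested genes 0.239% rose. With 1 library dropped the adjusted p exceeded 0.05 for Trim24 without control replicate 2 (0.0819), KAP1-deleted replicate 1 (0.0631) and tumour replicates 1 and 2 (0.0848 and 0.0833) and Cdhr2 without control replicate 2 (0.0647), and ranged over all alternatives from 5.7e-10 to 0.108 and from 1.2e-41 to 0.0647 in that order.

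Raised genes of RNA processing and stress, and raised genes without a known role, came next. Rpp40 encodes a protein subunit of ribonuclease P, which matures transfer RNA. It rose from 4.73 and 4.26 to 42.5 and 44.3 CPM, 9.65-fold, with replicates of each group nearly equal (log2 fold change 3.27 ± 0.24, edgeR adjusted p = 0.00393). Neither of its neighbours on chromosome 13 was called. Gadd45a, a gene that DNA damage and other stress induce, went from 1.44 and 1.46 to 4.43 and 5.27 CPM (log2 fold change 1.74 ± 0.25, edgeR adjusted p = 0.0423), and of 18 tested p53 target genes, a list without it, edgeR called 0 (3 with an unadjusted p under 0.05, 0 by DESeq2 and 0 by limma-voom). Slc35f2, a solute carrier, had the smallest fold change of all raised genes, from 2.89 and 3.16 to 9.10 and 9.02 CPM (log2 fold change 1.58 ± 0.21, edgeR adjusted p = 0.0294). Gm11100 is a gene of chromosome 14 with no role known. It stood at 0.173 and 0.288 CPM in control and 47.3 and 65.1 CPM in KAP1-deleted livers (log2 fold change 7.85 ± 0.45, edgeR adjusted p = 0.00231), the lowest adjusted p of the comparison. Its neighbour Thoc7 was at 16.4 and 13.1 against 32.7 and 32.0 CPM (edgeR adjusted p = 0.145). The noncoding RNA 2410018L13Rik rose from 0.0577 and 0.0509 to 2.57 and 1.74 CPM (edgeR adjusted p = 0.0105, 1.6e-22 to 0.0581 over all alternatives), 5730507C01Rik from 2.05 and 0.899 to 10.2 and 8.05 CPM (edgeR adjusted p = 0.0419), and the antisense RNA Gm13348, with 0 control counts, to 1.25 and 1.21 CPM, a rise of at least 38.3-fold (edgeR adjusted p = 0.0256). Words found in no other gene made up 41.5% of 2410018L13Rik and 59.5% of 5730507C01Rik, so reads of other genes may be mixed in. Loss of a single library raised the adjusted p above 0.05 for Gadd45a without control replicates 1 and 2 (0.126 and 0.100), KAP1-deleted replicates 1 and 2 (0.0648 and 0.170) and tumour replicates 1 and 2 (0.0652 and 0.0622), Slc35f2 without control replicates 1 and 2 (0.100 and 0.0747), KAP1-deleted replicates 1 and 2 (0.0864 and 0.0947) and tumour replicates 1 and 2 (0.0610 and 0.0598), 5730507C01Rik without tumour replicates 1 and 2 (0.0896 and 0.0889), and Gm13348 without control replicates 1 and 2 (0.0615 and 0.0819). It ranged over all alternatives from 2.7e-06 to 0.170, 3.8e-07 to 0.100, 3.1e-16 to 0.111 and 1.6e-23 to 0.0819 in that order.

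Among the lowered genes were Rarres1 and enzymes that act on steroids and on arachidonic acid. Rarres1, a gene that retinoic acid induces in other cells, fell most. It stood at 63.9 and 81.6 CPM in control and 1.27 and 2.33 CPM in KAP1-deleted livers, 40.4-fold lower (log2 fold change -5.33 ± 0.49, edgeR adjusted p = 0.0150), and the tumours held 0.166 and 0.552 CPM. Cyp2c23, a cytochrome P450 that makes epoxides of arachidonic acid, fell from 89.3 and 73.5 to 4.06 and 10.8 CPM (log2 fold change -3.45 ± 0.44, edgeR adjusted p = 0.0419). It was the 1 called gene of 35 tested Cyp2 cytochromes, where 0.336% of all tested genes were called. Cyp7b1, the hydroxylase of oxysterols and of the steroid dehydroepiandrosterone, had unequal controls at 269.7 and 114 CPM, both well above the 19.2 and 20.3 CPM of KAP1-deleted livers (log2 fold change -3.28 ± 0.39, edgeR adjusted p = 0.0244). It was the 1 called gene of 16 tested genes of bile acid synthesis, against the same 0.336% of all tested genes. Hsd17b6, a dehydrogenase of androgen metabolism, fell from 83.1 and 129 to 18.8 and 25.1 CPM (log2 fold change -2.27 ± 0.28, edgeR adjusted p = 0.0244). Fits with 1 library fewer put the adjusted p above 0.05 for Rarres1 without control replicates 1 and 2 (0.168 and 0.130), Cyp2c23 without control replicates 1 and 2 (0.393 and 0.308) and tumour replicates 1 and 2 (0.0673 and 0.0649), Cyp7b1 without KAP1-deleted replicates 1 and 2 (0.120 and 0.129) and tumour replicates 1 and 2 (0.0616 and 0.0622) and Hsd17b6 without tumour replicates 1 and 2 (0.0610 and 0.0598). Over all alternatives it ranged from 4.0e-77 to 0.168, 6.1e-39 to 0.393, 1.0e-33 to 0.129 and 3.2e-18 to 0.0715 in that order.

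Of the lowered genes known from immune signalling, Nlrp12, a sensor protein of the NOD-like family that damps inflammation, fell from 71.2 and 50.1 to 6.24 and 2.88 CPM (log2 fold change -3.73 ± 0.43, edgeR adjusted p = 0.0244). Zap70, a kinase best known below the T cell receptor, fell from 12.1 and 9.50 to 0.817 and 1.86 CPM (log2 fold change -3.00 ± 0.40, edgeR adjusted p = 0.0300). Of T cell markers, the co-receptor gene Cd4 was at 0.923 and 0.679 CPM in control and 0.182 and 0.466 CPM in KAP1-deleted livers and Cd8b1 at 0.202 and 0.187 against 0.0227 and 0.169 CPM, both without overlap and lower, while the receptor subunit Cd3d was at 0.144 and 0.153 against 0.159 and 0.339 CPM, without overlap and higher (edgeR adjusted p = 1, 1 and 1). Summed lymphocyte markers were at 10.8 and 9.13 CPM in control and 9.56 and 61.9 CPM in KAP1-deleted livers, the last of which held 48.4 CPM of the B cell gene Ighm. Of 18 tested markers 14 had a log2 fold change above 0 and 4 below, and 0 were called by edgeR (1 with an unadjusted p under 0.05, 0 by DESeq2 and 0 by limma-voom). Their part in the fall of Zap70 was not tested. Il1rap, the co-receptor of interleukin-1, fell from 297 and 207 to 79.6 and 62.2 CPM (log2 fold change -1.83 ± 0.26, edgeR adjusted p = 0.0423). The antisense RNA Gm20319 that overlaps it fell from 25.5 and 20.8 to 6.24 and 6.10 CPM (log2 fold change -1.91 ± 0.19, edgeR adjusted p = 0.0105). Whether the counting used strand is not given, so reads of these partners may be mixed. Ifi27, an interferon-inducible protein of mitochondria, fell from 68.9 and 89.9 to 19.3 and 20.2 CPM (log2 fold change -2.01 ± 0.24, edgeR adjusted p = 0.0217). Of 33 other interferon-stimulated genes edgeR called 0 (0 with an unadjusted p under 0.05, 0 by DESeq2 and 0 by limma-voom), and their median log2 fold change was -0.15. Dropping a library ended the calls, at the adjusted p given, for Nlrp12 without control replicates 1 and 2 (0.213 and 0.127), Zap70 without control replicates 1 and 2 (0.116 and 0.0760) and tumour replicates 1 and 2 (0.0653 and 0.0640) and Il1rap without control replicate 1 (0.0695), KAP1-deleted replicate 2 (0.127) and tumour replicates 1 and 2 (0.0843 and 0.0811), and over all alternatives it ranged from 1.6e-44 to 0.213, 5.2e-19 to 0.116 and 8.6e-11 to 0.127 in that order.

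Slc17a8 and Grm8, lowered genes of glutamate signalling, are best known from neurons, and no list of such genes was tested. Slc17a8, a vesicular glutamate transporter, went from 27.7 and 19.2 to 3.04 and 3.75 CPM (log2 fold change -2.79 ± 0.35, edgeR adjusted p = 0.0244). Grm8, a metabotropic glutamate receptor, went from 4.47 and 2.02 to 0.136 and 0.169 CPM (log2 fold change -4.37 ± 0.52, edgeR adjusted p = 0.0217). Other lowered genes were a kinase, a chaperone and a hormone receptor. Aatk, a tyrosine kinase of neurons and dying myeloid cells, fell from 9.15 and 16.0 to 2.57 and 3.35 CPM (edgeR adjusted p = 0.0476). Hspb1, a small heat shock protein, fell from 6.44 and 13.7 to 1.04 and 1.19 CPM (edgeR adjusted p = 0.0474), with unequal controls and 44.6% of its words in no other gene. Npr2, the guanylyl cyclase receptor of C-type natriuretic peptide, had the smallest change of all called genes, from 30.3 and 36.5 to 13.9 and 15.6 CPM (log2 fold change -1.18 ± 0.18, edgeR adjusted p = 0.0487). Fam47e fell from 16.1 and 15.5 to 2.36 and 2.14 CPM (edgeR adjusted p = 0.0476) and the noncoding RNA Gm10032 from 1.88 and 1.60 to 0.114 and 0.127 CPM (edgeR adjusted p = 0.0484). The call was lost, at the adjusted p given, for Slc17a8 without control replicate 1 (0.0975) and KAP1-deleted replicate 1 (0.0648), Grm8 without tumour replicates 1 and 2 (0.0610 and 0.0598), Aatk without control replicate 2 (0.0819), KAP1-deleted replicates 1 and 2 (0.128 and 0.0635) and tumour replicates 1 and 2 (0.103 and 0.101), Hspb1 without control replicate 2 (0.0747), KAP1-deleted replicates 1 and 2 (0.233 and 0.204) and tumour replicates 1 and 2 (0.0616 and 0.0622), Npr2 without control replicate 2 (0.0819), KAP1-deleted replicates 1 and 2 (0.285 and 0.169) and tumour replicates 1 and 2 (0.112 and 0.109), Fam47e without control replicates 1 and 2 (0.261 and 0.196) and KAP1-deleted replicates 1 and 2 (0.234 and 0.267), and Gm10032 without control replicates 1 and 2 (0.121 and 0.0819) and KAP1-deleted replicates 1 and 2 (0.119 and 0.120). It ranged over all alternatives from 1.1e-22 to 0.0975, 1.6e-17 to 0.0715, 3.8e-11 to 0.128, 8.0e-21 to 0.233, 1.6e-05 to 0.285, 8.7e-20 to 0.267 and 4.1e-10 to 0.121 in that order.

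**Figure D4:**
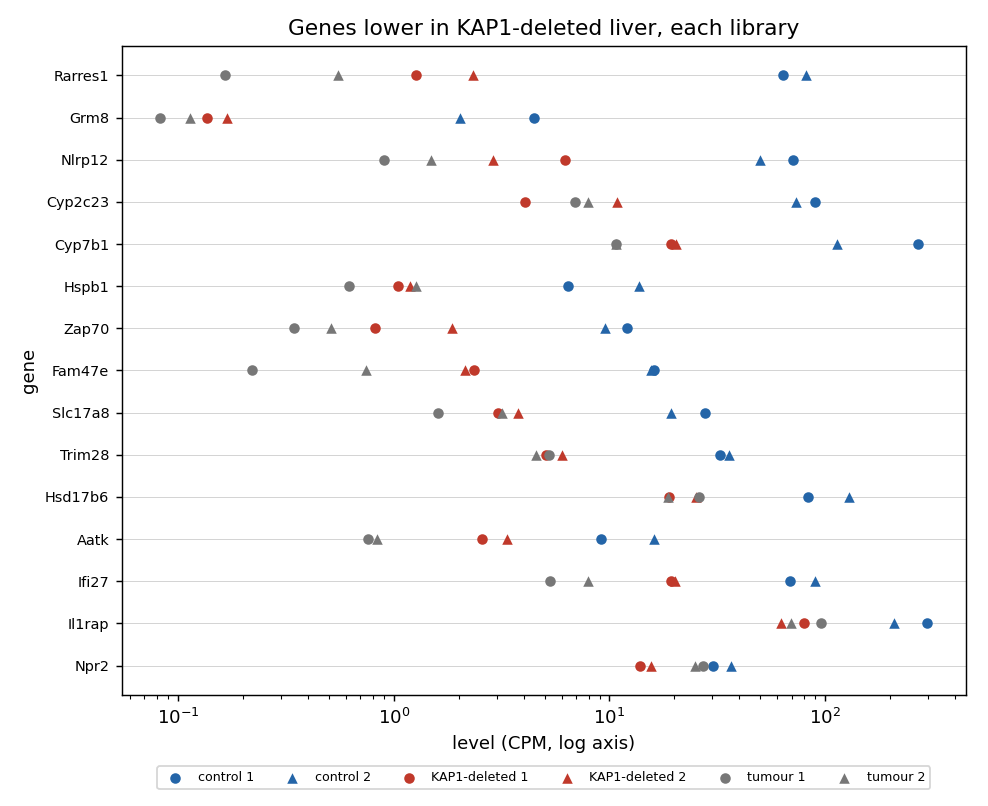
Levels in CPM (x axis, log axis) of 15 genes called lower in KAP1-deleted liver, 1 gene per line, with controls in blue, KAP1-deleted livers in red and tumours in grey, circles for replicate 1 and triangles for replicate 2. Both red symbols lie to the left of both blue ones in all 15, and Rarres1 at the top has the widest gap.

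Lists of sex-biased liver genes are read here against all tested genes, of which 0.336% were called and 5.44% had an unadjusted p under 0.05. Of 31 tested genes with higher expression in female mouse liver, Trim24 was the 1 that rose and 0 fell, with 9 at an unadjusted p under 0.05 and a median log2 fold change of 0.60. Of 32 tested genes with higher expression in male liver, Selenbp2 rose and Cyp7b1 fell, with 11 at an unadjusted p under 0.05 and a median of -0.22. DESeq2 called 4 genes of the female list higher and 0 lower, and 2 of the male list higher and 3 lower. Over all 17558 tested genes it called 152 higher and 78 lower. Limma-voom called 1 higher in the female list, and 1 higher and 1 lower in the male list. Members that did not pass the test included Tox, a nuclear protein of lymphocytes, at 8.11 and 6.62 against 17.8 and 13.3 CPM, the steroid hydroxylase Cyp2a4 at 19.8 and 43.4 against 76.8 and 75.4 CPM, the complement gene C6 at 149.7 and 81.0 against 28.9 and 46.2 CPM and the fatty acid hydroxylase Cyp4a12a at 84.8 and 76.3 against 156 and 177 CPM (edgeR adjusted p = 0.134, 0.583, 0.146 and 0.314). The last of these belongs to the male list but was higher in both KAP1-deleted livers. Of 19 tested glucuronosyltransferases edgeR called 0 (4 with an unadjusted p under 0.05, 2 lower by DESeq2 and 0 by limma-voom). Ugt1a9, one with overlapping relatives in its locus, was at 21.1 and 34.5 against 8.38 and 5.91 CPM (edgeR adjusted p = 0.304).

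Lists of lipid and sugar metabolism gave 0 calls by edgeR. In 21 tested genes of cholesterol synthesis and uptake all 21 log2 fold changes were below 0, with a median of -1.02, where 50.5% of all tested genes were above 0. Of the 21, 5 had an unadjusted p under 0.05, and DESeq2 and limma-voom called 0 and 0. Their summed level was 2564 and 1271 CPM in control replicates 1 and 2 and 1289 and 812 CPM in KAP1-deleted replicates 1 and 2, so the lower control and the higher KAP1-deleted liver overlapped. The reductase Tm7sf2 was at 40.2 and 39.9 against 29.9 and 25.9 CPM, the dehydrogenase Nsdhl at 31.3 and 11.1 against 9.44 and 4.64 CPM, and Srebf2, the regulator of the pathway, at 23.0 and 18.7 against 14.8 and 11.5 CPM (edgeR adjusted p = 0.635, 0.782 and 0.805). In 22 tested genes of lipid droplets and lipid uptake 1 had an unadjusted p under 0.05, DESeq2 called 1 higher and limma-voom 0. That gene was Cidec, a protein that fuses lipid droplets, at 18.4 and 46.5 against 85.3 and 105 CPM (log2 fold change 1.55 ± 0.41, edgeR adjusted p = 0.416). In 23 genes of fatty acid and triglyceride synthesis 1 had an unadjusted p under 0.05, the regulator Srebf1 at 77.3 and 86.1 against 51.8 and 53.6 CPM (edgeR adjusted p = 0.661), and DESeq2 and limma-voom called 0 and 0. The summed level of that list was 5592 and 18265 CPM in control replicates 1 and 2 and 5001 and 10795.5 CPM in KAP1-deleted replicates 1 and 2, so replicates differed more than groups. In 16 genes of gluconeogenesis and glycogen 1 had an unadjusted p under 0.05, the tyrosine aminotransferase Tat at 1048 and 546 against 296 and 374 CPM (edgeR adjusted p = 0.417), which DESeq2 called lower and limma-voom did not. Markers of zones of the liver lobule gave 0 calls by edgeR. Of 14 tested pericentral markers 5 were above 0 and 9 below, with a median of -0.22, 3 had an unadjusted p under 0.05, DESeq2 called 1 lower and limma-voom 0. Of 18 tested periportal markers 15 were above 0 and 3 below, with a median of 0.18, 1 had an unadjusted p under 0.05, DESeq2 called 1 higher and limma-voom 0. The lowest p of each list belonged to Gulo and Cdh1. Gulo, the enzyme of the last step of vitamin C synthesis and a pericentral marker, was at 272 and 299 against 63.1 and 140.4 CPM (edgeR adjusted p = 0.275), and Cdh1, the epithelial cadherin and a periportal marker, at 3.98 and 2.05 against 14.5 and 12.2 CPM (edgeR adjusted p = 0.0730). For cell division, in 32 proliferation genes edgeR called 0 (3 with an unadjusted p under 0.05, 0 by DESeq2 and 0 by limma-voom), with a median of -0.16 and a summed level of 108 and 105 CPM in control and 98.1 and 102 CPM in KAP1-deleted livers. In 11 oncofetal and progenitor markers edgeR called 0 (0 with an unadjusted p under 0.05, 0 by DESeq2 and 0 by limma-voom).

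**Figure D5:**
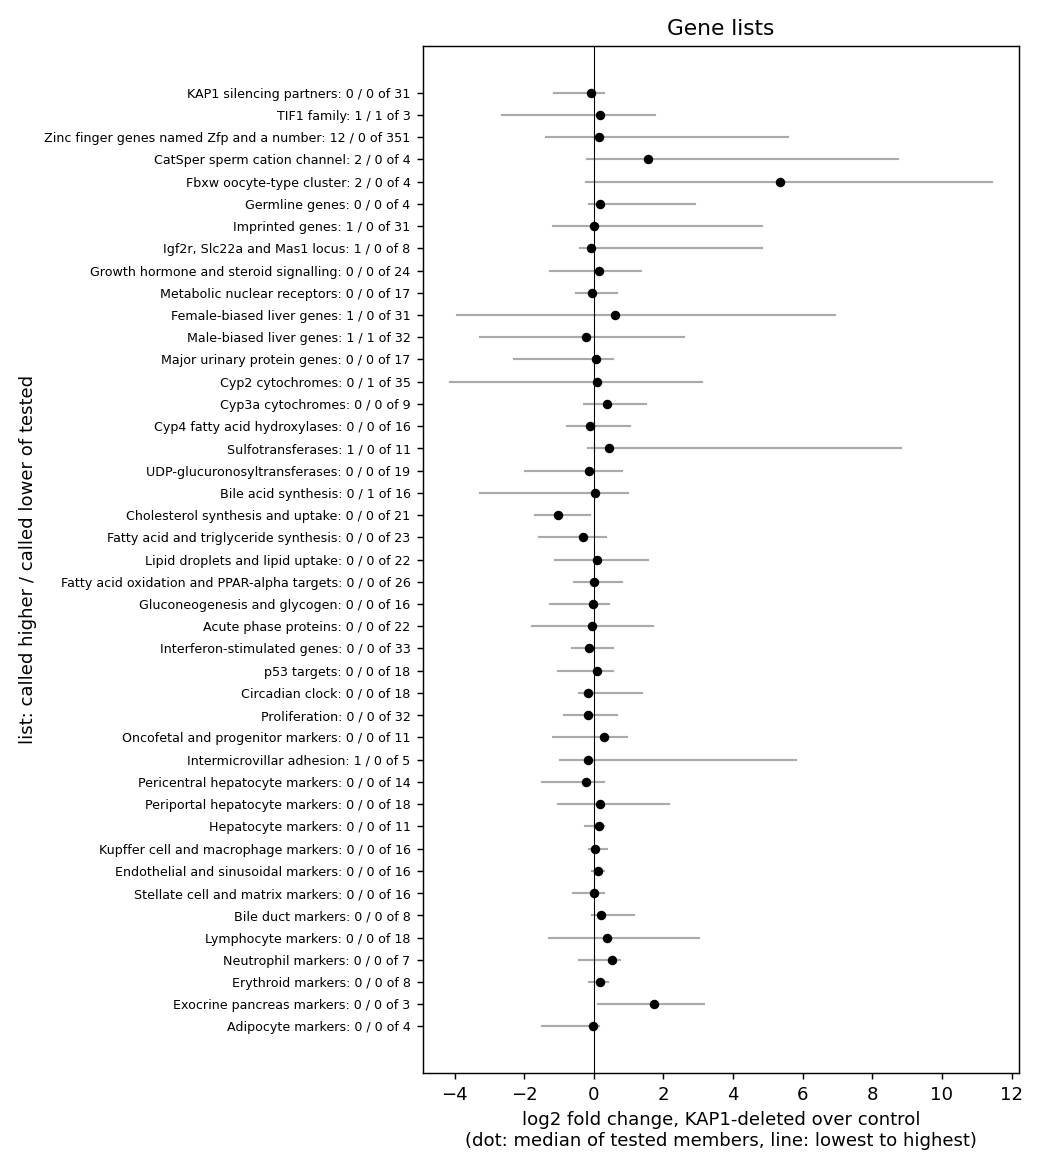
Median (dot) and lowest to highest (line) edgeR log2 fold change, KAP1-deleted over control liver (x axis), of the tested genes of each list, with the numbers called higher, called lower and tested beside its name. Medians of most lists lie near 0, and long lines to the right, as in the Fbxw and CatSper lists, come from members such as Fbxw19 and Catsperg2.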

How the data were processed

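Total RNA of liver tissue was sequenced from stranded TruSeq libraries, per the labels' protocols, whose extraction text speaks of cell lines. The authors deposited raw counts, whole reads per Ensembl gene, made with TopHat and HTSeq 0.6.1 on mm9, per the submitters' processing notes. The sources used here do not give the annotation or the strand setting. Entries naming no gene (20.9% to 27.6% of counted reads in the livers) were left out. Symbols and gene order came from a GRCm38 annotation by Ensembl identifier, which matched 16523 of 17558 tested genes. Genes passed filterByExpr (minimum count 10, minimum total 15), were scaled with TMM and tested with edgeR 4.0.16 (R 4.3.3), robust quasi-likelihood, on all 6 libraries (3 residual degrees of freedom, biological coefficient of variation 0.230), two-sided, with Benjamini-Hochberg adjustment over all tested genes and a prior count of 0.125. The SE is the absolute log2 fold change over the square root of F. The counts of replicates were no repeats of 1 library (chi-square over its degrees of freedom 321 for controls and 82.6 for KAP1-deleted livers). Fits were also run on simulated counts, with changes planted only in genes above a mean of about 1 CPM. The outcome is not given here, and changes in genes below that level were not covered.

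Mouse codes in the labels pair each KAP1-deleted liver with a tumour, and deviations of the pair from their group means correlated across genes (r = 0.150). The mouse entered 1 alternative as a replicate block, a random effect in limma-voom (duplicateCorrelation, consensus correlation 0.093), chosen after seeing the data because each mouse has 1 genotype. Other alternatives were scaling by upper quartiles or by size factors of DESeq2, no filter or a stricter one, removal of the 20 genes with most counts, DESeq2 1.42.0, limma-voom (limma 3.58.1), the 4 livers alone, and each library dropped. The comparison, the lists and the alternatives were chosen with earlier results of these data known. The rule for named genes took Trim28 and Alb, up to 20 higher and 15 lower called genes with the largest changes (at least 0.5 CPM in the higher group, no predicted names), up to 4 members of a list with the smallest p, and any other called gene. Named outside it, after their values were seen, were neighbours of called genes, members of the families of called genes, Cd3d, Cd4, Cd8b1, Ighm, Jchain, Kdm5d, Xist and the genes of chromosome X. One called gene that the rule takes is not reported here.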

Additional observations from a re-analysis of the deposited data

How the results depend on the processing

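The count of 42 genes higher and 17 lower became 354 and 217 without a filter on low counts, 26 and 8 with genes under a mean of 1 CPM left out, 152 and 78 with DESeq2, 26 and 12 with limma-voom, and 13 and 7 with only the 4 liver libraries. Each mouse has 1 genotype, so the replicate block by mouse as a fixed term cannot be told apart from the groups and was not run. As a random effect in limma-voom, chosen after seeing the data, the replicate block gave 29 higher and 12 lower, with all 26 and 12 calls of limma-voom without it among them. Of the 59 calls of edgeR, 18 were not made with the block, at an adjusted p of 0.0524 to 0.164. Leaving out 1 library gave 20 to 64 higher and 8 to 20 lower. DESeq2 size factors, upper-quartile scaling and leaving out the 20 most abundant genes gave 36 to 43 higher and 15 to 17 lower. Higher genes made up 71.2% of calls here, 62.0% without a filter and 56.5% to 85.3% with 1 library left out. In 1465 refits of named genes 1128 kept direction and side of the threshold, 271 lost the call, 63 gained one and 3 changed sign. Those that changed sign were not called. With 1 library left out, Trim33 ranged from -0.013 (without control replicate 2) to 0.38, Catsper2 from -0.14 (without KAP1-deleted replicate 1) to 0.47, and Fbxw15 from -0.23 (without KAP1-deleted replicate 2) to 0.64. The cause was not tested. Genes with few counts in control liver have loosely bounded fold changes at this depth, since 3 counts stand for 0.0866 and 0.0509 CPM in control replicates 1 and 2.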

Other observations

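Places on chromosome X held neighbouring tested genes that were higher in both KAP1-deleted livers without passing the test, and they were chosen after their values were seen. Pcdh11x, a protocadherin of neurons, had 49 and 58 counts in control replicates 1 and 2 and 1173 and 1029 counts in KAP1-deleted replicates 1 and 2 (edgeR adjusted p = 0.445). The next 3 tested genes are the histone variant gene H2afb3, with 1 and 0 against 18 and 14 counts, and the pseudogenes Gm14931 and Gm14930, with 0 and 1 against 19 and 16 and 2 and 1 against 44 and 46 counts. Of these 4 genes edgeR called 0, all 4 had an unadjusted p under 0.05, and DESeq2 called 2 and limma-voom 0. The tumours held 55 and 358 counts over the 4 genes. Further along, 8 consecutive tested genes from Gm15080 to Gm10439 had 1 and 0 counts in all in the controls. Their sum was 100 and 51 after deletion, and the tumours held 415 and 172. Luzp4, known from testis, and Gm8334 are among them, with 0 control counts each. After deletion Luzp4 had 10 and 5 counts and Gm8334 48 and 22 counts. EdgeR called 0 of the 8, 7 had an unadjusted p under 0.05, and DESeq2 called 1 and limma-voom 0. Genes with so few control counts entered the test only through KAP1-deleted or tumour libraries and could not be called lower. The numbers over these genes are therefore a description and no test. Nup62cl, also on chromosome X, stood at 0.0577 and 0.187 CPM in control and 3.81 and 1.46 CPM in KAP1-deleted livers, with an edgeR adjusted p of 0.0509.

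Ighm, an antibody chain gene of B cells, stood at 2.45 and 3.87 CPM in control and 3.75 and 48.4 CPM in KAP1-deleted livers. Jchain, the chain that joins secreted antibodies, stood at 2.71 and 1.73 against 4.86 and 32.3 CPM, so KAP1-deleted replicate 2 was high in both. The 3 raised genes without an entry in the reference annotation included ENSMUSG00000090914 at 0 and 0.0170 against 1.02 and 0.720 CPM (edgeR adjusted p = 0.0217). Dropping 1 library ended the call of ENSMUSG00000090914 without control replicates 1 and 2 (0.0564 and 0.0531) and tumour replicates 1 and 2 (0.0610 and 0.0598), and its adjusted p ranged from 2.2e-11 to 0.0715 over all alternatives. Alb was at 61347 and 74499 CPM in control and 53786 and 64500.3 CPM in KAP1-deleted livers (edgeR adjusted p = 1).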
